A study of Homo sapiens with 34 samples.

Results

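The MHC class II genes and their master regulator were followed in 3 human B-ALL cell lines in which *CCND3* was knocked down or the kinases CDK4 and CDK6 were inhibited. The set held 10 genes, chosen by symbol: *HLA-DRA*, *HLA-DRB1*, *HLA-DPA1*, *HLA-DPB1*, *HLA-DQA1*, *HLA-DQB1*, *HLA-DMA*, *HLA-DMB*, *CD74* and *CIITA*. All 10 were listed in each of the 6 comparisons, in which 13307 genes were listed throughout and 17587 at least once. NALM-6 cells carry the fusion ETV6-PDGFRB, RS4;11 cells, also called the MLL-AF4 line here, carry MLL-AF4, and BV-173 cells carry BCR-ABL. In each line, cells kept for 3 days with 1 µM palbociclib, an inhibitor of CDK4 and CDK6, were set against cells given the solvent DMSO. Other cells of the line received, by lentivirus, either shCCND3, an shRNA against *CCND3*, or a scrambled shRNA, and were sorted on day 4. A single *CCND3* shRNA was sequenced. Of the 12 groups, 10 held 3 samples, whereas the NALM-6 cells with shCCND3 and the BV-173 cells with DMSO made up groups of 2 (34 samples in all). The files give 1 level per group, a signal that the authors scaled within each pair of groups. Spread between samples, depth per sample and overlap between groups could therefore not be seen, and no p-value was computed. A gene was counted as higher or lower when its 2 levels differed by at least 1.5-fold. The 3 lines were the only repeats, and a two-sided exact sign permutation test over 3 lines cannot give a p below 0.25.

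MHC class II molecules are dimers of an alpha and a beta chain that show peptides taken up from outside the cell to CD4+ T cells. B cells, dendritic cells and macrophages are the main cells that carry them. HLA-DR, HLA-DP and HLA-DQ are the molecules of the cell surface, the invariant chain *CD74* guides them to the endosome and fills their groove on the way, and HLA-DM exchanges the remaining invariant chain fragment for a peptide. *CIITA* binds no DNA itself and acts as a co-activator on a complex of RFX, CREB and NF-Y proteins at the X and Y boxes of class II promoters. In B-lineage cells *CIITA* is transcribed from a B-cell promoter, and in many other cells interferon gamma switches it on.

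On GRCh38.p14, to which the authors' build hg38 belongs, 8 members lie on chromosome 6 between 32439887 and 33089696, within 650 kb. *CD74* lies apart, at chr5:150401639-150412910, and *CIITA* at chr16:10866206-10943021. Since these genes stood higher together after palbociclib, the promoters of 8 members in RefSeq (GRCh38.p14) were read for the X and Y boxes. *HLA-DRA* and *CIITA* were not among the entries. The windows below run from 140 to 11 bases before the transcription start, 5′ to 3′ on the strand of the gene, and capitals mark a match to the X box core AGNNACNGA or to the Y box core ATTGG on either strand. In *HLA-DMB* the last run of capitals is a Y box core overlapped by an X box core, both on the opposite strand. The window ends before that X box core does.
HLA-DRB1: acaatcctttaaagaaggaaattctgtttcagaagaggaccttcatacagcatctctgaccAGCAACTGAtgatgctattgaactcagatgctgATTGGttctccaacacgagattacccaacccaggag
HLA-DQA1: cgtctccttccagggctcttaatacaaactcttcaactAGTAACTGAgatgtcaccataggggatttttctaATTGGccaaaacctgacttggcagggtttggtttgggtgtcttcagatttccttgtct
HLA-DQB1: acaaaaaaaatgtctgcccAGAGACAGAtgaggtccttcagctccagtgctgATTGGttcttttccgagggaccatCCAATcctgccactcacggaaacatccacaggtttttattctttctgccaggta
HLA-DMA: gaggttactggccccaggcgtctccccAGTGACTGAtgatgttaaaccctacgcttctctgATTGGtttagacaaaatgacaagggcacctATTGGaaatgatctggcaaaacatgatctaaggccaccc
HLA-DMB: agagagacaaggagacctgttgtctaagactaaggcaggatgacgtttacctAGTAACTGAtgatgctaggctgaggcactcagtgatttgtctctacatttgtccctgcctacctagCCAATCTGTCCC
HLA-DPA1: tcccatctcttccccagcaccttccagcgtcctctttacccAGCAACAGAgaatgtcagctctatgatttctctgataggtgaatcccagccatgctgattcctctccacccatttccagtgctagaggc
HLA-DPB1: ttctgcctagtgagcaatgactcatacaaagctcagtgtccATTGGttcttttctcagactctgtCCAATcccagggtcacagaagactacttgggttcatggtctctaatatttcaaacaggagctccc
CD74: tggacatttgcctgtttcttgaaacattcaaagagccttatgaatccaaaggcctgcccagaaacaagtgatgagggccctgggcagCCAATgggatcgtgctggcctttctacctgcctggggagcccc
The windows lie, in this order, at chr6:32589859-32589988 (minus strand), chr6:32637266-32637395 (plus strand), chr6:32666668-32666797 (minus strand), chr6:32953108-32953237 (minus strand), chr6:32941039-32941168 (minus strand), chr6:33073660-33073789 (minus strand), chr6:33075850-33075979 (plus strand) and chr5:150412921-150413050 (minus strand). *HLA-DPA1* has 2 entries, and the start site nearer to *HLA-DPB1* is shown. The other entry held neither core.

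In *HLA-DRB1*, *HLA-DQA1*, *HLA-DQB1* and *HLA-DMA* the X box core was followed on the same strand by a Y box core. The starts of the cores were 33 bases apart in *HLA-DRB1* and *HLA-DQB1* and 34 bases apart in *HLA-DQA1* and *HLA-DMA*. The same arrangement, allowed between 25 and 45 bases, was found in 58 of 35116 promoters of 300 bases (0.165%). Alone, the X box core was in 15.3% of these promoters and the Y box core in 34.6%. *HLA-DMB* and *HLA-DPA1* held the X box core without such a Y box core, and *HLA-DPB1* and *CD74* held a Y box core without the X box core. The letters were chosen after the class II promoters had been read, so these matches describe the sequences and do not show binding.

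**Figure D1:**
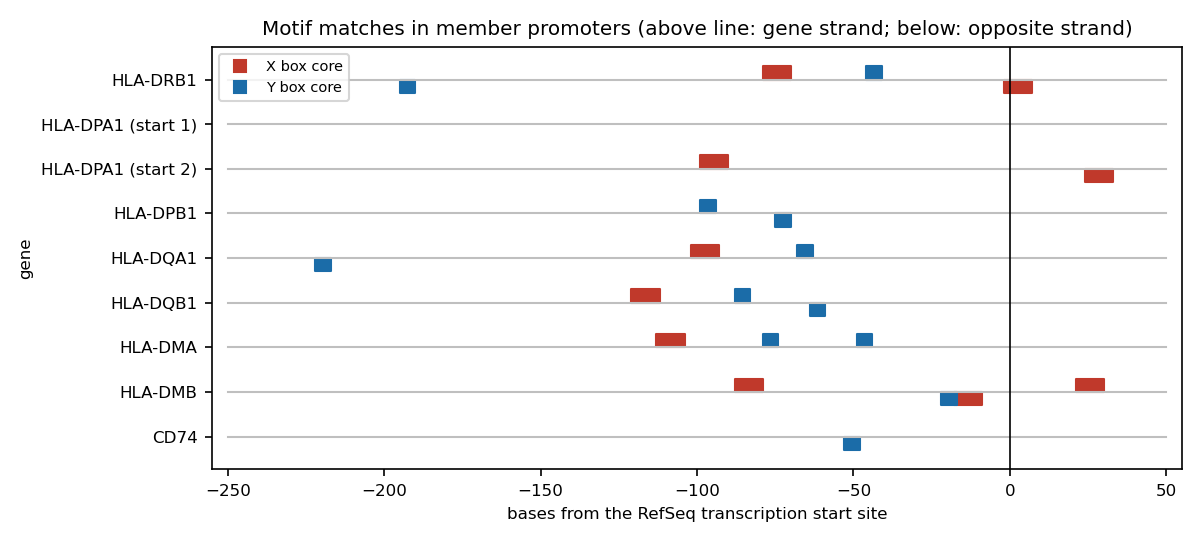
Positions of the X box core (red) and the Y box core (blue) from 250 bases before to 50 bases after the RefSeq transcription start site of 8 member genes, with 2 start sites for *HLA-DPA1*. Boxes above a line are on the strand of the gene and boxes below it on the opposite strand. The X box core of 4 genes is followed on the same strand by a Y box core that starts 33 or 34 bases further on.

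*CCND3* itself checked the labels. In the knockdown its level was 24.2% of that with scrambled shRNA in NALM-6, 20.7% in the MLL-AF4 line and 31.1% in BV-173, and with palbociclib it was 76% to 81.8% of that with DMSO. The summed level over the listed genes was 17810468 to 20756235 per group, and the median log2 ratio of all genes was between −0.01 and 0.06 in the 6 comparisons. All 10 B-precursor markers were listed in every comparison, with summed levels of 2912 to 5691 ppm (parts per 1000000 of the summed level of the group). *MME*, the CD10 antigen, was nearly absent from RS4;11, at levels of 2.53 to 6.7. The T-cell genes *CD3D*, *CD3E* and *CD3G*, of which *CD3D* reached 7.28 with palbociclib in RS4;11, and the monocyte gene *CD14*, at 8.76 or less, were near the bottom of the scale. Summed T-cell markers came to at most 79.6 ppm, most of it *LCK*, and erythroid markers to at most 0.0892. Other myeloid markers than *CD14* were not that low, and the myeloid sum was 14.5 to 103 ppm. *CD33* reached 1614 in BV-173 with shCCND3, and *ITGAM* reached 714 in RS4;11 with shCCND3.

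In the control groups the class II genes formed a steep order. Levels between genes were compared per kilobase, in ppm of the summed level of the group. *CD74* was the highest member in all 12 groups and *HLA-DRA* the next in all 12. In the DMSO controls *CD74* stood at 1882 ppm per kilobase in NALM-6, 3169 in the MLL-AF4 line and 3239 in BV-173, and *HLA-DRA* at 566, 535 and 486. At the other end were *HLA-DQA1*, with 0.729 in NALM-6, and *HLA-DMB*, with 8.13 in the MLL-AF4 line and 4.21 in BV-173. *CIITA* was in the lower part of the order, at 23.9 in NALM-6, 42.2 in the MLL-AF4 line and 24.8 in BV-173. The 10 genes together took 0.211% of the summed level in NALM-6 with DMSO, 0.318% in the MLL-AF4 line and 0.32% in BV-173, and most of this was *CD74*.

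With DMSO the lines were alike in some class II genes and far apart in others. In ppm, without the length correction, *HLA-DRA* with DMSO was 353 in NALM-6, 332 in the MLL-AF4 line and 308 in BV-173, so the highest line had 1.15 times the level of the lowest. *HLA-DPA1* was similarly even, with 1.2 times between the highest and the lowest line. With the scrambled controls these ranges were wider, 2.11 times for *HLA-DRA* and 1.68 times for *HLA-DPA1*. *HLA-DQA1* was instead 18.2 in the MLL-AF4 line, 10.1 in BV-173 and 0.534 in NALM-6, a range of 34-fold. *HLA-DQB1*, its partner chain, was 69.2 in the MLL-AF4 line, 66.4 in BV-173 and 15.7 in NALM-6. With the scrambled controls NALM-6 was again the lowest line for both DQ chains, at 1.97 and 20. The order of the lines changed between the 2 kinds of control for *HLA-DRA*, *HLA-DRB1*, *HLA-DPA1*, *HLA-DMB*, *CD74* and *CIITA*, and BV-173 was the lowest line in 7 of 10 members with scrambled shRNA. The tables were scaled separately, and the spread between samples that would say which of these neighbours differ is unknown.

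**Figure D2:**
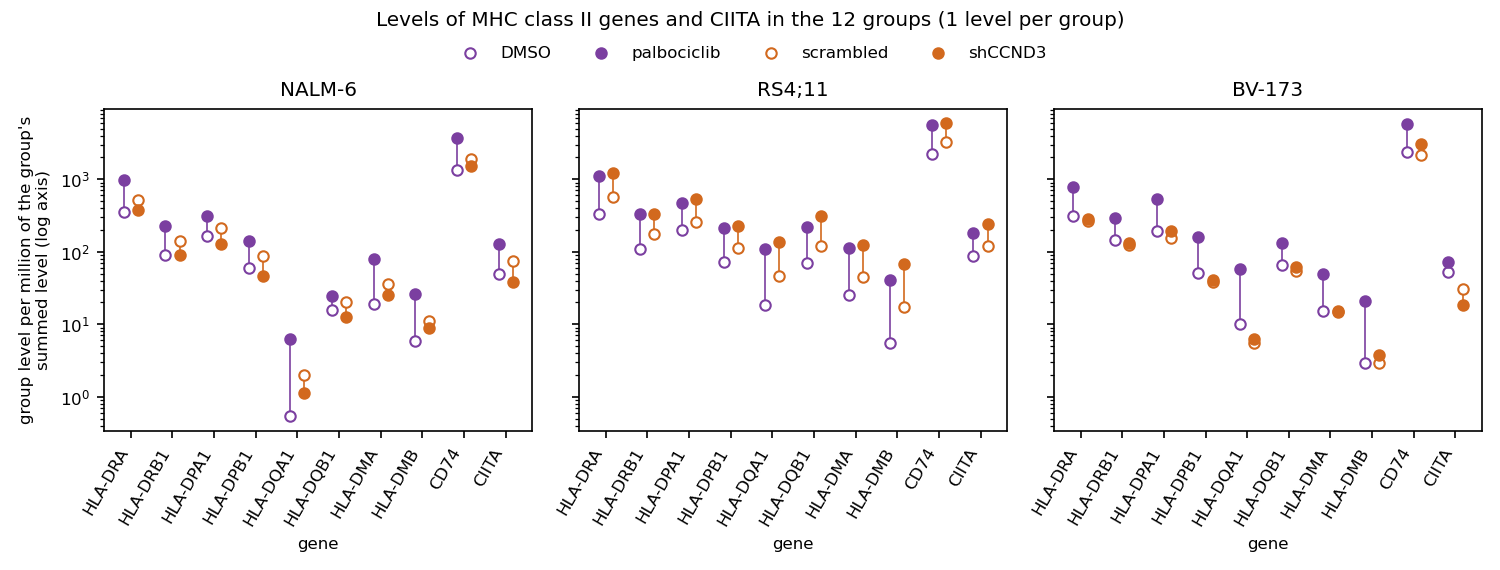
Level of each member in the 12 groups, in ppm of the summed level of the group, on a log axis, with 1 panel per cell line. Open circles are the controls (DMSO or scrambled shRNA) and filled circles the treated groups, and a line joins each pair. With palbociclib every filled circle is above its control, whereas with shCCND3 the filled circles are above the controls in RS4;11 and below them in NALM-6.

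Palbociclib was accompanied by higher levels of the whole set. All 10 members had a higher level with palbociclib than with DMSO in each of the 3 lines, and 28 of the 30 differences reached 1.5-fold. In NALM-6, 9 of 10 members were higher and none was lower, where 21.4% of the 15614 listed genes were higher and 14.9% lower. In RS4;11 all 10 were higher, where 16.7% of 15857 genes were higher and 15% lower. In BV-173 9 of 10 were higher and none was lower, where 13.6% of 14797 genes were higher and 11.9% lower. The median log2 ratio of the members was 1.27 in NALM-6, 1.66 in the MLL-AF4 line and 1.47 in BV-173, beside 0.06, 0.01 and 0.04 for all genes. The share of the summed level taken by the 10 genes went from 0.211% to 0.559% in NALM-6, from 0.318% to 0.832% in the MLL-AF4 line and from 0.32% to 0.788% in BV-173. In bulk RNA a higher level in each cell and more cells with the transcript cannot be told apart.

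The HLA-DR chains are the bulk of the surface class II. The *HLA-DRA* level was 6873 with DMSO and 17536 with palbociclib in NALM-6, 6561 and 22216 in the MLL-AF4 line, and 5938 and 15803 in BV-173. The 3 controls lay close together and all 3 treated groups lay above them, by 2.55-, 3.39- and 2.66-fold. *HLA-DRB1*, the main DR beta chain, was 1768 and 4087 in NALM-6, 2129 and 6658 in the MLL-AF4 line, and 2792 and 5824 in BV-173. Its folds of 2.31, 3.13 and 2.09 were a little under those of *HLA-DRA* in each line. Reads of *HLA-DRB1* can be shared with *HLA-DRB3*, *HLA-DRB4* and *HLA-DRB5*, which differ between haplotypes, so the division between these genes is uncertain.

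*HLA-DPA1* and *HLA-DPB1* encode HLA-DP. The *HLA-DPA1* level was 3255 with DMSO and 5490.25 with palbociclib in NALM-6, 3974 and 9327 in the MLL-AF4 line, and 3677 and 10661 in BV-173. The *HLA-DPB1* level was 1156 and 2542 in NALM-6, 1445 and 4203 in the MLL-AF4 line, and 981 and 3193 in BV-173. For both chains NALM-6 had the smallest fold, 1.69 and 2.2, and BV-173 the largest, 2.9 and 3.25.

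HLA-DQ was the molecule whose chains differed most from each other. The *HLA-DQA1* level was 10.4 with DMSO and 110.04 with palbociclib in NALM-6, 359 and 2177 in the MLL-AF4 line, and 195 and 1147 in BV-173. These were 10.6-, 6.06- and 5.89-fold, and in BV-173 only 22 of 14797 genes had a larger ratio. The NALM-6 ratio starts from a level near 10. *HLA-DQB1*, by contrast, was 306 and 434 in NALM-6, a difference of 1.42-fold that did not reach the threshold, 1368 and 4341 in the MLL-AF4 line, and 1281 and 2682 in BV-173. Both DQ genes are highly polymorphic, and *HLA-DQA2*, a near copy of *HLA-DQA1*, had log2 ratios of 2.69 in NALM-6 and 2.09 in RS4;11, so reads could be split between the copies.

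The HLA-DM genes, whose product loads peptides in the endosome, were the other pair with large ratios. The *HLA-DMA* level was 374 and 1392 in NALM-6, 498 and 2224 in the MLL-AF4 line, and 296 and 995 in BV-173, or 3.72-, 4.46- and 3.36-fold. The *HLA-DMB* level was 114 and 467 in NALM-6, 107 and 822 in the MLL-AF4 line, and 55.3 and 417 in BV-173. In RS4;11 and BV-173 *HLA-DMB* was 7.66- and 7.54-fold higher, and only 43 and 7 of all listed genes had a larger ratio there.

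The invariant chain *CD74* was the most even member. Its level was 26305 and 65211 in NALM-6, 44732 and 110346 in the MLL-AF4 line, and 45508 and 116441 in BV-173. The log2 ratios of 1.31, 1.3 and 1.36 had a mean of 1.32 (SD 0.03 over the 3 lines). *CIITA* was 971 and 2281 in NALM-6, 1707 and 3567 in the MLL-AF4 line, and 1019 and 1467 in BV-173. Its 1.44-fold difference in BV-173 was under the threshold, in the line where *HLA-DPA1* and *HLA-DPB1* had their largest folds. Over the 3 lines the mean log2 ratio of *CIITA* was 0.94 (SD 0.37), the lowest of the 10 members, and that of *HLA-DQA1* was 2.85 (SD 0.48), the highest.

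The knockdown of *CCND3* separated the lines. All 10 members were higher with shCCND3 than with scrambled shRNA in RS4;11, where 9.73% of 15944 genes were higher and 9.72% lower. In NALM-6 the levels of all 10 were below the control, and 6 of them were lower by at least 1.5-fold, where 7.82% of 15409 genes were higher and 8.47% lower. In BV-173 1 member was higher and 1 lower, where 3.32% of 14763 genes were higher and 4.78% lower. The median log2 ratio of the members was 1.1 in the MLL-AF4 line, −0.70 in NALM-6 and 0.24 in BV-173, beside 0.01, 0.01 and −0.01 for all genes. Whether the lines differ beyond the spread between samples was not tested. The knockdown group of NALM-6 is one of the 2 groups with 2 samples.

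**Figure D3:**
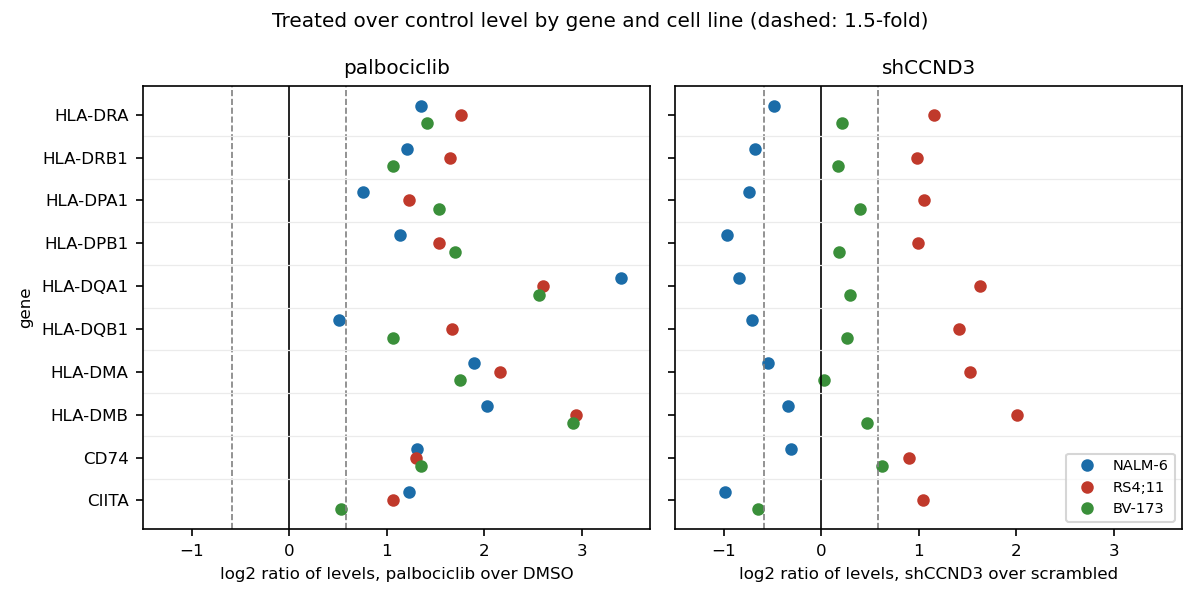
Log2 ratio of the treated over the control level for each member, with palbociclib on the left and shCCND3 on the right. Each dot is 1 cell line, the solid line is no difference and the dashed lines are 1.5-fold. The lines lie on the same side with palbociclib, and with shCCND3 the dots of RS4;11 are between 0.9 and 2.01 and those of NALM-6 between −0.99 and −0.31.

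In RS4;11 the DR and DP chains were 1.97- to 2.23-fold higher. *HLA-DRA* went from 10669 with scrambled shRNA to 23772 with shCCND3, *HLA-DRB1* from 3299 to 6499, and *HLA-DPA1* from 4962 to 10281. *HLA-DPB1* went from 2174 to 4337, a fold of 1.99. The chains of HLA-DQ and HLA-DM had larger ratios. *HLA-DQA1* was 870 and 2680 (3.08-fold), *HLA-DQB1* 2270.4 and 6048 (2.66-fold), and *HLA-DMA* 844 and 2425 (2.87-fold). *HLA-DMB* had the largest ratio, with 327 and 1317 (4.03-fold), and 49 genes in the table had a larger one. *CD74* was 61519 and 114482 (1.86-fold). *CIITA* was 2308 and 4761 (2.06-fold), close to its 2.09-fold with palbociclib. *HLA-DRB1*, *HLA-DPB1* and *CD74* were the 3 members under 2-fold.

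In NALM-6 the regulator showed the largest difference of the 10 members. *CIITA* was 1372 with scrambled shRNA and 690.2 with shCCND3, 1.99-fold lower. *HLA-DPB1* was 1604 and 821 (1.95-fold lower), and *HLA-DQA1* was 36.1 and 20.1 (1.8-fold lower). *HLA-DPA1*, at 3883 and 2322, *HLA-DQB1*, at 366 and 223, and *HLA-DRB1*, at 2586 and 1608, were 1.67-, 1.64- and 1.61-fold lower. The other 4 members did not reach the threshold. *HLA-DRA* was 9381 and 6702, *HLA-DMA* 666 and 454, *HLA-DMB* 201 and 159, and *CD74* 34358 and 27731. No member was 2-fold lower, and of the 7 members other than the polymorphic *HLA-DRB1*, *HLA-DQA1* and *HLA-DQB1* only 3 were counted.

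In BV-173 the class II chains stayed near their controls while *CIITA* did not. *HLA-DRA* was 5146 with scrambled shRNA and 5954 with shCCND3, *HLA-DRB1* 2412 and 2705, and *HLA-DMA* 299 and 304. *HLA-DPA1* was 3003 and 3966, *HLA-DPB1* 746 and 843, *HLA-DQA1* 105 and 129, *HLA-DQB1* 1064 and 1279, and *HLA-DMB* 56.4 and 77.9. These 8 genes were 1.02- to 1.38-fold higher. *CD74* was 41795 and 64233, 1.54-fold higher, and fell short of the threshold when both groups were given the same summed level. *CIITA* was 591 and 378, 1.56-fold lower. On the deposited levels *CIITA* and the 9 other members thus lay on opposite sides of no difference here, but this depended on the scaling. In ppm *HLA-DMA* was also below its control, and per kilobase in ppm so were *HLA-DRA*, *HLA-DRB1*, *HLA-DPB1* and *HLA-DMA*, which left 5 of 10 members above and a median log2 ratio of −0.01. In the 5 other comparisons all 10 lay on the same side on each of these scales.

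The scrambled controls themselves differed from the DMSO controls in the class II genes. In ppm of the summed level, all 10 members were higher with scrambled shRNA than with DMSO in NALM-6 (median log2 difference 0.57) and in RS4;11 (0.72), and 5 and 7 of them by at least 1.5-fold, where 21.6% and 13.5% of all genes were higher and 5.37% lower in both. In BV-173 the median was −0.24, and *HLA-DQA1* and *CIITA* were lower by at least 1.5-fold, where 10.7% of all genes were lower and 10.2% higher. For all genes the medians were 0.18 in NALM-6, 0.02 in the MLL-AF4 line and −0.02 in BV-173. Set against DMSO in place of scrambled shRNA, the members with shCCND3 had a median log2 difference of 0.02 in NALM-6, 1.76 in the MLL-AF4 line and −0.11 in BV-173. In NALM-6 all 10 members of the knockdown were thus below the scrambled control but lay on both sides of DMSO, from −0.38 for *HLA-DPB1* and *CIITA* to 1.06 for *HLA-DQA1*. In RS4;11 all 10 were above both controls. Transduction, sorting, the day of collection and the separate scaling of the tables cannot be told apart in this gap.

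Within each line the knockdown and the inhibitor had separate controls, so their log2 ratios could be set side by side. The log2 ratio with shCCND3 was below that with palbociclib for all 10 members in each line. The median difference, shCCND3 less palbociclib, was −2.00 in NALM-6, −1.19 in BV-173 and −0.57 in the MLL-AF4 line. In RS4;11 *CIITA* hardly differed (−0.02) and *HLA-DPA1* (−0.18) and *HLA-DQB1* (−0.25) came next. *HLA-DQA1* had the widest gap in NALM-6 (−4.25) and in the MLL-AF4 line (−0.98), and *HLA-DMB* in BV-173 (−2.45). No error was given to the differences, since both ratios were taken from group levels and the authors' p-values were not used. They also rest on the controls, as the levels of the treated groups themselves show. In ppm all 10 members were higher with shCCND3 than with palbociclib in the MLL-AF4 line, from almost equal for *HLA-DRB1* (334 in both) to 67.7 against 41.2 for *HLA-DMB*, with a median log2 difference of 0.17. In NALM-6 and BV-173 all 10 were below palbociclib on this scale too, with medians of −1.49 and −1.61.

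The chains of one dimer did not always keep step. *HLA-DRA* and *HLA-DRB1* stayed together, with log2 ratios that differed by 0.04 to 0.35 in the 6 comparisons, *HLA-DRA* being the larger each time. For HLA-DP the difference, *HLA-DPA1* less *HLA-DPB1*, was −0.38 to −0.17 with palbociclib and 0.05 to 0.23 with shCCND3. For HLA-DM the ratio of *HLA-DMB* exceeded that of *HLA-DMA* in all 6 comparisons, and *HLA-DMA* less *HLA-DMB* was −1.16 in BV-173 with palbociclib. HLA-DQ was different, as *HLA-DQA1* exceeded *HLA-DQB1* by 2.9 in NALM-6, 1.49 in BV-173 and 0.93 in the MLL-AF4 line with palbociclib, whereas the difference was −0.13 to 0.21 with shCCND3. Per kilobase the *HLA-DQB1* level was 27.6 times that of *HLA-DQA1* in NALM-6 with DMSO and 3.7 times with palbociclib. In RS4;11 the same ratio of levels went from 3.55 to 1.86 and in BV-173 from 6.12 to 2.18. The files give 1 length per gene and table, so the ratio depends on how reads of polymorphic alleles were placed.

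The wider class II family of 16 genes, with the further DR beta chains, the DQ copies and HLA-DO, 9 of them members, was counted in the same way. With palbociclib 12 of 14 listed genes were higher in NALM-6, 14 of 16 in the MLL-AF4 line and 13 of 14 in BV-173. None was lower. Of all genes 21.4%, 16.7% and 13.6% were higher and 14.9%, 15% and 11.9% lower in these lines. With shCCND3 14 of 16 were higher in the MLL-AF4 line, 6 of 16 were lower in NALM-6 and 1 of 14 was higher in BV-173. The matching shares of all genes were 9.73% higher, 8.47% lower and 3.32% higher. These counts include the 9 members and so partly restate the counts given above. The 2 that were not higher in RS4;11 were *HLA-DRB4* and *HLA-DQB2*, both at levels under 1. The extra DR beta genes marked the lines. *HLA-DRB4* was at 234 in NALM-6 with DMSO, 8.66 in BV-173 and 0.17 in the MLL-AF4 line, and *HLA-DRB5* at 1510 in BV-173 with DMSO, 72.4 in the MLL-AF4 line and, with scrambled shRNA, 0.4 in NALM-6. *HLA-DRB3* was highest in RS4;11, at 1554 with DMSO and 4549.5 with palbociclib. *HLA-DOA*, a chain of HLA-DO, which restrains HLA-DM, had log2 ratios of 1.16, 1.28 and 2.18 with palbociclib in NALM-6, the MLL-AF4 line and BV-173 and 1.09 with shCCND3 in the MLL-AF4 line. Its partner *HLA-DOB* was at levels of 4.01 to 61.8 and had log2 ratios with palbociclib of −0.40 in NALM-6, 1.14 in the MLL-AF4 line and 0.34 in BV-173.

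MHC class I genes, which are expressed by nearly all nucleated cells, showed few such differences. Of 14 genes for class I presentation, 0 were higher and 1 lower with palbociclib in NALM-6, 0 and 0 in the MLL-AF4 line, and 1 and 0 in BV-173. The medians of their log2 ratios were −0.08, 0.12 and 0.21. With shCCND3, 2 of 14 were higher in NALM-6, 1 in the MLL-AF4 line and 0 in BV-173, and none was lower. Over all genes 21.4%, 16.7% and 13.6% were higher with palbociclib and 7.82%, 9.73% and 3.32% with shCCND3. *NLRC5*, the class I counterpart of *CIITA*, had log2 ratios with palbociclib of 0.57 in NALM-6, −0.42 in the MLL-AF4 line and −0.09 in BV-173. Whether the class II and class I lists differ was not tested, as no replicate values were at hand.

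**Figure D4:**
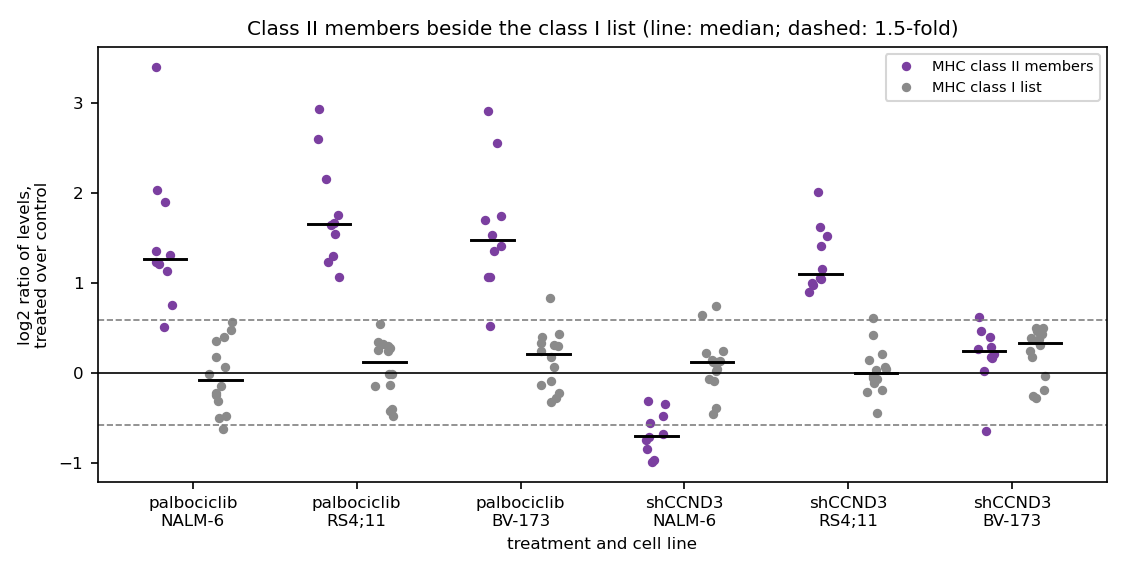
Log2 ratio of the treated over the control level for the 10 members, *CIITA* included (purple), and for 14 genes of MHC class I presentation (grey) in the 6 comparisons. Each dot is a gene, the short black line is the median and the dashed lines are 1.5-fold. The class II medians are 1.27, 1.66 and 1.47 with palbociclib and −0.70, 1.1 and 0.24 with shCCND3 in NALM-6, the MLL-AF4 line and BV-173, and the class I medians stay between −0.08 and 0.33.

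The DNA-binding partners of *CIITA* had mixed values. Of the 8 factors at class II promoters, *CIITA* included, 2 were higher and 2 lower with palbociclib in NALM-6 and in the MLL-AF4 line, and 0 and 2 in BV-173. Over all genes 21.4%, 16.7% and 13.6% were higher and 14.9%, 15% and 11.9% lower, so these small counts with palbociclib were near the background. With shCCND3, 0 of 8 were higher and 1 lower in NALM-6, 1 and 3 in the MLL-AF4 line, and 0 and 1 in BV-173. All genes with shCCND3 were higher in 7.82%, 9.73% and 3.32% and lower in 8.47%, 9.72% and 4.78%. The 3 lower ones in the MLL-AF4 line were *RFXAP*, *NFYA* and *NFYB*. *RFXAP*, a subunit of RFX, had log2 ratios with palbociclib of −0.88 in NALM-6, −1.43 in the MLL-AF4 line and −0.53 in BV-173. *NFYB*, the NF-Y subunit that pairs with *NFYC*, was lower by at least 1.5-fold in each line, with levels of 682 and 364 in NALM-6, 1107 and 527 in the MLL-AF4 line, and 845 and 440 in BV-173. *RFX5*, the large subunit of RFX, stayed between −0.12 and 0.4 in all 6 comparisons. *RFXANK*, the ankyrin subunit of RFX, was positive in all 6, at 0.26 in NALM-6, 0.72 in the MLL-AF4 line and 0.17 in BV-173 with palbociclib. *NFYA*, the DNA-binding subunit of NF-Y, was at 0.86, 0.2 and 0.43 in the same order with palbociclib, and with shCCND3 at −0.55 in NALM-6, −0.77 in the MLL-AF4 line and −0.58 in BV-173.

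Among 14 factors known to regulate *CIITA*, 3 were higher with palbociclib in each line, a share of 21.4% in NALM-6 as over all genes and near the 16.7% and 13.6% of all genes in the other lines. With palbociclib 1, 1 and 4 were lower in NALM-6, the MLL-AF4 line and BV-173, where 14.9%, 15% and 11.9% of all genes were lower. With shCCND3, 0 were higher and 3 lower in NALM-6, 2 and 0 in the MLL-AF4 line, and 3 and 2 in BV-173. Over all genes with shCCND3, 7.82%, 9.73% and 3.32% were higher and 8.47%, 9.72% and 4.78% lower. *IRF8*, a lymphoid and myeloid interferon regulatory factor, was higher with palbociclib in all 3 lines, with levels of 69.6 and 129 in NALM-6, 811 and 1464 in the MLL-AF4 line, and 113 and 674 in BV-173. With shCCND3 its log2 ratios were 0.41 in NALM-6, 0.93 in the MLL-AF4 line and 0.88 in BV-173. *IRF4*, its close relative, differed between the lines. With shCCND3 it was 307 and 862 in the MLL-AF4 line (log2 ratio 1.49) and 4610.5 and 2792 in NALM-6 (−0.72). In BV-173 it was 5050.1 and 3656 (−0.47). The *CIITA* ratios in the same order were 1.04, −0.99 and −0.65. With palbociclib *IRF4* was at 0.82 in the MLL-AF4 line, −0.58 in NALM-6 and −0.15 in BV-173, and *CIITA* at 1.06, 1.23 and 0.53. Whether *IRF4* and *CIITA* are linked was not tested. *ETS1*, a lymphoid factor, was lower with palbociclib in NALM-6 (−1.43) and BV-173 (−1.51). *BCL6*, a repressor in germinal centre B cells, was at 2.22 with palbociclib in BV-173 and at −1.96 with shCCND3 in NALM-6. *PAX5*, which defines B-cell identity, was lower by 1.5-fold with palbociclib in BV-173 (−0.59) and between −0.32 and 0.03 in the other comparisons.

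**Figure D5:**
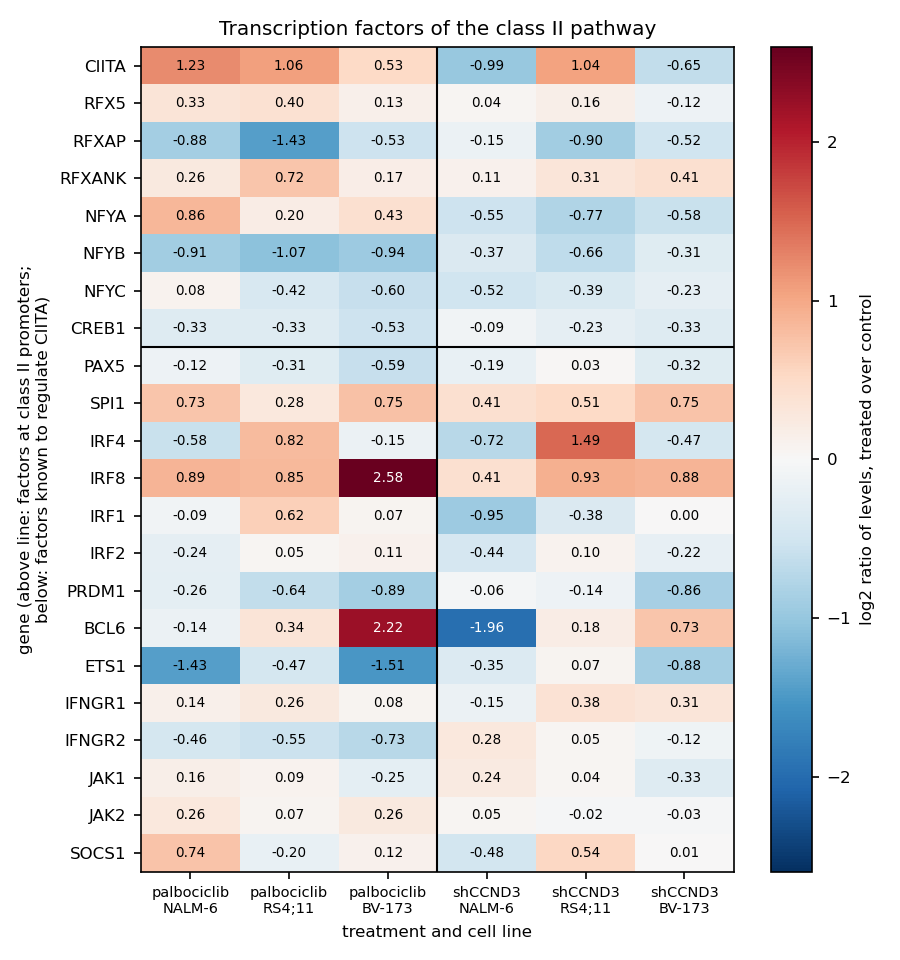
Log2 ratio of the treated over the control level, printed in each cell, for 8 factors at class II promoters and 14 factors known to regulate *CIITA*, in the 3 lines with palbociclib (left) and shCCND3 (right). Red is higher and blue is lower than the control. *NFYB* is blue in all 6 columns, *IRF8* is red in all 6, and *CIITA* is red in 4 and blue in NALM-6 and BV-173 with shCCND3.

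Genes that act beside class II in the endosome had mixed values. Of 11 listed genes for endosomal processing and turnover, 2 were higher and 1 lower with palbociclib in NALM-6, 5 and 1 in the MLL-AF4 line, and 4 and 0 in BV-173. All genes were higher in 21.4%, 16.7% and 13.6% and lower in 14.9%, 15% and 11.9%. The count of higher genes in NALM-6 was therefore near the background, and the list's median log2 ratio was −0.003, 0.38 and 0.01. *CTSD*, an aspartic protease, had log2 ratios of 0.37, 1.7 and 0.84 with palbociclib in NALM-6, the MLL-AF4 line and BV-173 and 1.74 with shCCND3 in the MLL-AF4 line. *IFI30*, a thiol reductase that unfolds antigens, had 0.01, 0.89 and 1.3 with palbociclib. *MARCHF1*, a ubiquitin ligase that removes class II from the surface, had −1.16, −0.87 and −0.25. With shCCND3, 2 of 11 were higher and 0 lower in NALM-6, 4 and 1 of 12 in the MLL-AF4 line, and 2 and 1 of 11 in BV-173. All genes with shCCND3 were higher in 7.82%, 9.73% and 3.32% and lower in 8.47%, 9.72% and 4.78%. *IFI30* was at 0.92, 1.24 and 0.73 in the 3 knockdowns, in the same order of lines, and *CTSZ* at 1.02, 0.32 and 0.39.

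Of the genes for co-stimulation and other surface proteins of antigen presenting cells, 6 of 9 were higher with palbociclib in NALM-6, 4 of 9 in the MLL-AF4 line and 4 of 10 in BV-173, and with shCCND3 4, 5 and 5 of 10. Over all genes the shares were 21.4%, 16.7% and 13.6% with palbociclib and 7.82%, 9.73% and 3.32% with shCCND3. *LTB*, a membrane lymphotoxin, had the largest mean log2 ratio of this list for both treatments, 3.01 with palbociclib and 2.25 with shCCND3. *CD86*, a ligand of CD28, had log2 ratios of 1.86, 1 and 1.35 with palbociclib, at a low level. The tetraspanin *CD82* was at 2.61 with palbociclib and at −0.66 with shCCND3 in NALM-6. It was the 1 gene of this list that was lower in that knockdown, where 4 were higher. Of the interferon response list, 8 of 21 genes were higher with palbociclib in NALM-6, 9 of 22 in the MLL-AF4 line and 4 of 21 in BV-173, and 2, 3 and 2 were lower. The count of 4 in BV-173 was near the share of all genes. Among all genes 14.9%, 15% and 11.9% were lower with palbociclib. With shCCND3 0, 6 and 1 were higher. In the knockdown of NALM-6 5 were lower, where 8.47% of all genes were lower, among them *GBP1* (−1.37) and *IRF1* (−0.95).

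Proliferation genes and markers of other cell types were read beside the class II genes. The 6 proliferation genes were all lower in 5 comparisons, with median log2 ratios of −3.08, −5.02 and −2.08 with palbociclib in NALM-6, the MLL-AF4 line and BV-173 and of −1.35 and −1.73 with shCCND3 in NALM-6 and RS4;11. In BV-173 with shCCND3 3 of 6 were lower and the median was −0.57. Of all genes 14.9%, 15% and 11.9% were lower with palbociclib in NALM-6, the MLL-AF4 line and BV-173. With shCCND3 these shares were 8.47%, 9.72% and 4.78%. In NALM-6 the members were above DMSO with palbociclib and below scrambled shRNA with shCCND3. Set against DMSO, the members with shCCND3 had a median log2 difference of 0.02 there. Markers of dendritic cells and macrophages summed to 14.2 to 302 ppm, and the highest sum was that of RS4;11 with shCCND3, where *ITGAX* went from 1471 to 5485. In that comparison 4 of the 7 markers were listed, of which *ITGAX* and *CD68* were higher, *CD1C* was lower (31.1 and 19) and *LAMP3* was at 0.33 in both groups. With palbociclib the sum went from 14.2 to 29.2 ppm in NALM-6, where 4 of 5 listed markers were higher, from 45.7 to 130.1 ppm in the MLL-AF4 line (1 of 5) and from 22.3 to 32.1 ppm in BV-173 (1 of 6). With shCCND3 the sum went from 14.7 to 25.1 ppm in NALM-6, where 3 of 6 listed markers were higher. In BV-173 with shCCND3 the sum went from 20.1 to 28 ppm (1 of 4). Over all genes 21.4%, 16.7% and 13.6% were higher with palbociclib and 7.82%, 9.73% and 3.32% with shCCND3. In RS4;11 with shCCND3 the summed myeloid markers went from 56.3 to 69.2 ppm, and in BV-173 with palbociclib from 65.6 to 103 ppm. The part of proliferation, or of cells with such markers, in the class II levels was not tested.

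Among genes outside these lists, the pattern of the class II set over the 6 comparisons was matched best by *UROS*, *CHST12*, *ABAT*, *SELENOW* and *TSTA3*. Likeness was the root mean square difference from the median log2 ratio of the members over the 6 comparisons, among 8617 genes with a mean level of at least 100 in every comparison. It was 0.433 for *UROS*, an enzyme of haem synthesis, 0.436 for *CHST12*, a sulfotransferase, and 0.44 for *ABAT*, the GABA transaminase. *ABAT* had log2 ratios of 1.77, 2.08 and 2.01 with palbociclib in NALM-6, the MLL-AF4 line and BV-173 and −0.08, 1.3 and 0.39 with shCCND3. None of the 5 came as low as the class II genes in the knockdown of NALM-6, where *CHST12* was the lowest at −0.22. Of the members, which make up that median and so are no independent match, *HLA-DRA* was nearest at 0.108 and *CIITA* was at 0.595, with 50 other genes nearer than it.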

How the data were processed

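RNA-seq of 34 samples in 12 groups was analysed, with the cell line and treatment of the labels as groups. Per the submitters' processing notes and the file headers, Bowtie2, RSEM and DESeq2 were used with hg38, with no versions given in the sources used here. The deposited tables, 1 for each of the 6 comparisons, hold 1 signal per group and gene, a level that the authors scaled within the pair and that grows with gene length. They also hold the authors' log2 fold changes, p-values and adjusted p, which were not used. No column of single samples was left unused (0).

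The design allowed for counts per sample. The tables hold group levels, so no test was run, the spread between samples and the depth per sample are unknown, and a gene was counted past 1.5-fold. Levels in different tables were compared in ppm (parts per 1000000 of the summed level of the group), and between genes also per kilobase of deposited length. Ratios of genes with levels under 1 are pulled towards 0 in the tables.

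Members and gene lists were chosen with earlier results of these data known. Named genes were the members, *CCND3*, up to 4 genes per list and treatment by mean log2 ratio over the lines or members of a small list, and the 5 genes nearest to the members' median pattern. *IRF4*, *BCL6*, *PAX5*, *NLRC5*, the other class II genes and marker genes were named after their values were seen. Some genes of the lists are not reported here and were left out of the list counts. List symbols were matched by NCBI gene ID. Promoters came from RefSeq (GRCh38.p14), 250 bases before to 50 after the start. Alternatives were other folds (2, and a difference of 25%), 1 or 10 added to levels, centring, equal sums, a level of at least 10, and leaving out genes or lines. Python 3.11.15, numpy 2.4.6, pandas 2.3.3 and matplotlib 3.10.9 were used. The ratio and count steps were run on simulated levels without spread between samples, which checks their arithmetic only.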

Additional observations from a re-analysis of the deposited data

Results flagged for a closer look

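4 results were picked out because the same contrast went in opposite directions in different cell lines. After shCCND3 the members stood above their control in RS4;11 (10 of 10) and below it in NALM-6 (10 of 10), and the medians of their log2 ratios were 1.80 apart. *CIITA* alone differed by 2.04 on the log2 scale between RS4;11 and NALM-6 and by 1.69 between RS4;11 and BV-173, being higher with shCCND3 in RS4;11 and lower in the other two. The 9 members other than *CIITA* lay above their control in BV-173 and below it in NALM-6, with medians 0.95 apart. This depended on the scaling, since *HLA-DMA* in ppm, and *HLA-DRA*, *HLA-DRB1*, *HLA-DPB1* and *HLA-DMA* per kilobase in ppm, were below their control in BV-173 as well. None of these differences was tested, since the files give 1 level per group and the direction of single samples could not be seen.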

How the results depend on the processing

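No paired analysis was possible because the deposited tables give 1 level per group. For the same reason leaving out single samples and a count test were not run. Adding 1 or 10 to the levels, centring on the median of all genes and a mean level of at least 10 left each count of members within 1.5 times its main value and each median within the SD over the lines. In NALM-6 with shCCND3 the count of lower members was 3 of 7 without *HLA-DRB1*, *HLA-DQA1* and *HLA-DQB1*, and 0 at 2-fold. In BV-173 with shCCND3 the 1 higher member (*CD74*) was lost with equal summed levels (0) and at 2-fold (0), 3 were higher when a difference of 25% counted, and the 1 lower member (*CIITA*) was lost at 2-fold (0). Between lines, the median log2 difference in level of the members was 0.34 with DMSO and 0.51 with scrambled controls for RS4;11 less NALM-6, 0.31 and 1.32 for RS4;11 less BV-173, and 0.14 and −0.70 for BV-173 less NALM-6, which turned its sign. The cause of these shifts was not tested. With palbociclib no member's mean log2 ratio over the lines changed sign when a line was left out. With shCCND3 the means rested on RS4;11. Without it 7 of 10 changed sign (*HLA-DRA* from 0.29 to −0.14, *HLA-DPB1* from 0.07 to −0.39) and that of *HLA-DMB*, the 1 past 1.5-fold, went from 0.71 to 0.06, and *CIITA* went from −0.20 to 0.20 without NALM-6 and to 0.03 without BV-173. 2 alternatives were added after seeing the data. Per kilobase in ppm the median with palbociclib in BV-173 was 1.23 and no member was higher with shCCND3 in BV-173 (0). In ppm of the treated groups the median of shCCND3 less palbociclib in RS4;11 was 0.17 in place of −0.57. Precision is limited by the single level per group.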
